A study of Mus musculus with 8 samples.

Results

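Complement transcripts were measured by RNA sequencing in c-Kit bead-enriched cells taken from mouse B16F10 melanomas. The 9 genes described were chosen by name as complement components of macrophages or stroma and as complement receptors, and all 9 had a row among the 55450 genes counted. They were the C1q chains C1qa, C1qb and C1qc, the components C2, C3, C4b and Cfb, and the receptors C3ar1 and C5ar1. A filter on low counts kept 8 of the 9, and Cfb did not pass it.

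The tumours grew from injected PERK KO B16F10 cells (4 libraries, numbered 1 to 4) or Scramble B16F10 control cells (4 libraries, numbered 2 to 5). B16F10 is a pigmented melanoma line of C57BL/6 origin, and PERK, encoded by Eif2ak3, is a stress sensor in the membrane of the endoplasmic reticulum that reduces translation when unfolded proteins build up. All hosts were wild-type C57BL6 mice, 6 weeks old when they received 150000 cells under the skin, and tumours were taken on day 17, so only the injected cells differed by design. How PERK was removed, and whether each line was a single clone, is not given in the sources used here, and p-values below measure only the spread between these numbered tumours, which are not stated to come from separate mice.

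The libraries of PERK KO tumours held 29006949 to 47530393 counts, and those of scramble tumours 44950033 to 56697163. Levels are given as CPM, the count relative to the total of its library after scaling between libraries, where 3 counts were worth 0.0515 to 0.100 CPM. Eif2ak3 fell to 13.8 ± 7.07 CPM in PERK KO tumours, against 54.3 ± 4.67 CPM in scramble tumours (SD, n = 4 each; edgeR adjusted p = 0.00371). In the enriched cells 12 melanocyte markers summed to between 16889 and 20453 CPM in PERK KO libraries and between 25345 and 25935 CPM in scramble libraries. Kit itself averaged 175 ± 37.8 CPM in PERK KO tumours and 196 ± 23.7 CPM in scramble tumours (SD, n = 4 each; edgeR adjusted p = 0.559).

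Complement is a cascade of blood and tissue proteins that tags targets for uptake and calls in leukocytes. The classical pathway starts when C1q, built from the C1qa, C1qb and C1qc chains, binds a target. C4 and C2 then form an enzyme that cleaves C3, while factor B forms the corresponding enzyme of the alternative pathway. The small fragments C3a and C5a act on the receptors C3ar1 and C5ar1. The liver makes most circulating components, but C1q comes largely from macrophages and dendritic cells, and stromal, epithelial and myeloid cells also make C3.

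Of the 8 genes tested, 6 rose in PERK KO tumours and none fell. The 6 were the 3 C1q chains, C3, C3ar1 and C5ar1, each between 4.72 and 7.12 times higher, and every PERK KO library lay above every scramble library for each of them. C2 and C4b, the other abundant components, did not pass the test, and their groups overlapped. In the same fit 7.66% of all 16662 genes tested were called higher and 6.13% lower, and the libraries of PERK KO tumours lay above those of scramble tumours at 10.2% of genes. The median log2 change was 2.48 over the 8 tested genes and -0.02 over all tested genes. No tested gene was lower at an unadjusted p under 0.05 by edgeR or DESeq2, and 1, C4b, was by limma-voom. The comparison was of bulk RNA from bead-enriched cells, and levels given for tumours are those of the enriched cells. More cells of a type in the tumour, more of them kept by the beads, and more RNA per cell cannot be told apart.

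**Figure D1:**
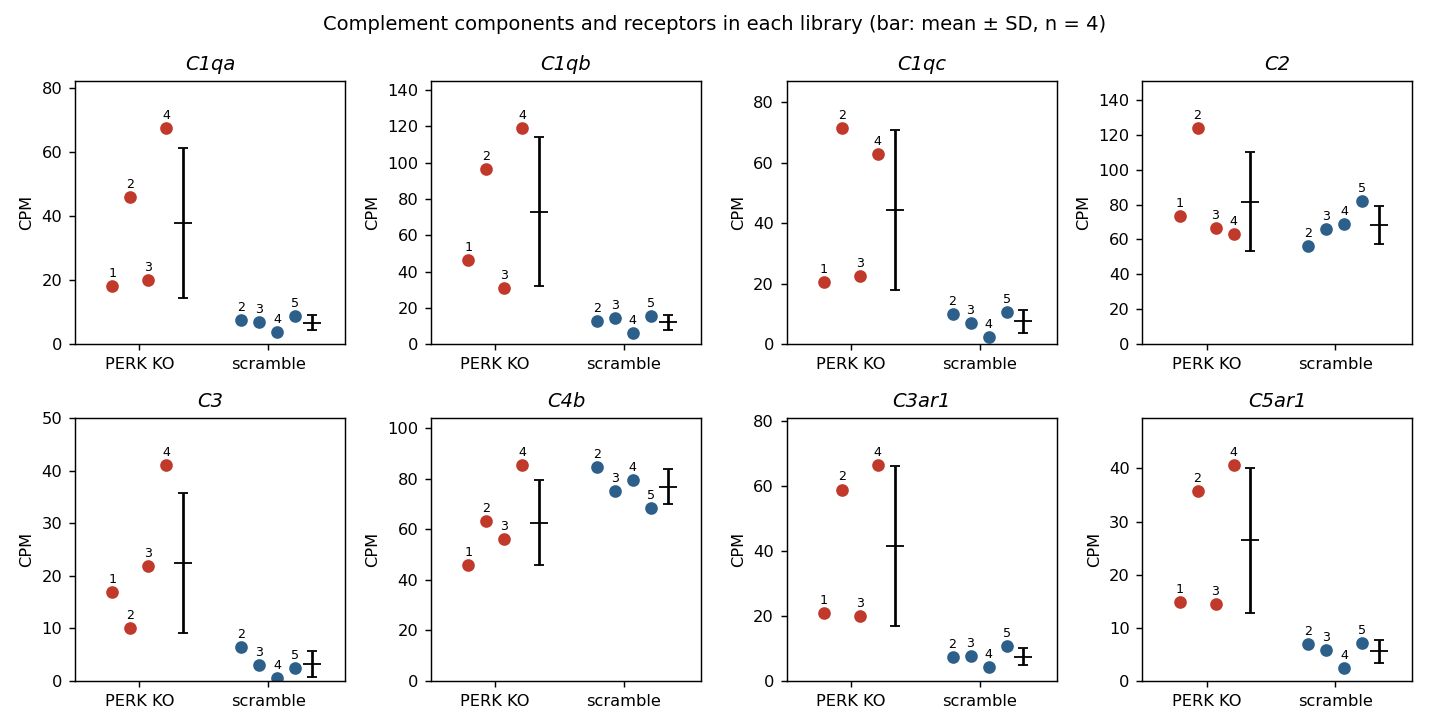
Level of each tested gene (CPM, y axis from 0) in each library, with PERK KO tumours in red and scramble tumours in blue, library numbers above the points, and black bars for the mean ± SD (n = 4). The C1q chains, C3, C3ar1 and C5ar1 show no overlap between groups, whereas C2 and C4b overlap, at 63.2 to 124 CPM against 56.1 to 82.1 CPM for C2 and 45.7 to 85.5 CPM against 68.3 to 84.7 CPM for C4b.

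The C1q genes lie side by side on the minus strand of mm10 chromosome 4, within 18.7 kb between 136880129 and 136898803. C1qa (ENSMUSG00000036887.5) had 18.1, 46.2, 19.9 and 67.5 CPM in PERK KO libraries 1 to 4, against 7.64, 6.82, 3.70 and 8.92 CPM in scramble libraries 2 to 5. PERK KO libraries 2 and 4 were the high ones, and scramble library 4 was the lowest of all 8. C1qa was called higher, with a log2 change of 2.48 (SE 0.47, 95% interval 1.42 to 3.55, edgeR adjusted p = 0.0103).

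C1qb (ENSMUSG00000036905.8), the most abundant of the chains, had 46.2, 96.3, 31.1 and 119 CPM in PERK KO libraries 1 to 4, against 12.5, 14.4, 5.91 and 15.4 CPM in scramble libraries 2 to 5. PERK KO libraries 2 and 4 were again high and scramble library 4 again the lowest, and C1qb rose by 2.60 (SE 0.49, edgeR adjusted p = 0.0127). C1qc (ENSMUSG00000036896.5) had 20.6, 71.4, 22.6 and 62.8 CPM in PERK KO libraries, against 9.96, 6.85, 2.47 and 10.8 CPM in scramble libraries, and rose by 2.56 (SE 0.59, edgeR adjusted p = 0.0256). PERK KO library 2 was here the highest, ahead of library 4. C1qc was no longer called once scramble replicate 2, 3 or 5 was left out (edgeR adjusted p = 0.0617, 0.0932 and 0.0522) and when no filter was used (0.075), while its log2 change stayed between 2.25 and 3.07 over every setting tried.

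Per kilobase of exon, C1qb made up 53.3 ± 5.06% of the 3 C1q transcripts in PERK KO tumours and 51.9 ± 3.81% in scramble tumours (SD, n = 4 each). C1qa made up 28.6 ± 3.77% in PERK KO tumours and 30.9 ± 2.73% in scramble tumours, and C1qc 18.1 ± 3.18% in PERK KO tumours and 17.2 ± 4.14% in scramble tumours. The ranges of the groups overlapped for each chain, so the proportions differed by less than the spread between libraries while the levels differed 5.596 to 6.06 times. Exon lengths were taken as the union of all annotated exons, which sets the absolute shares.

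**Figure D2:**
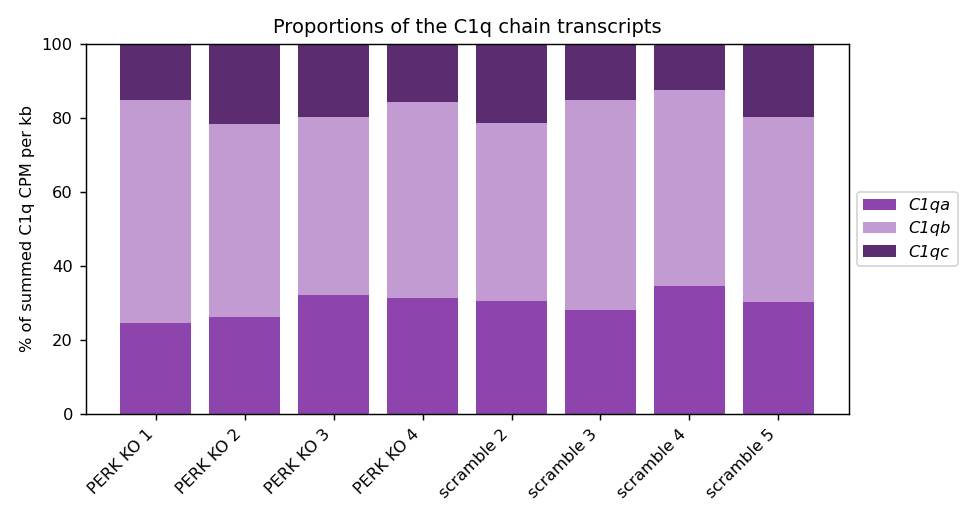
Share of each C1q chain in the summed C1q level per kilobase (%, y axis) in each of the 8 libraries, PERK KO on the left. C1qb holds 48.1 to 60.2% in PERK KO libraries and 47.9 to 56.7% in scramble libraries, and the order C1qb, C1qa, C1qc holds in all 8.

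Promoter sequence was at hand from RefSeq (GRCm38.p6) for 5 of the 9 genes: C1qb, C1qc, C3, C3ar1 and C5ar1. Stretches upstream of the RefSeq start are shown for 2 genes of the C1q cluster, for C3ar1, which moved with them, and for C3, which rose with another order of libraries. All 4 are on the minus strand and read 5′ to 3′, at chr4:136886201-136886450, chr4:136893066-136893164, chr6:122856162-122856407 and chr17:57228137-57228386. Positions are counted from the RefSeq start, and each stretch begins at -250 and stops before the first base that GENCODE annotates as exon. It ends at -1 for C1qb and C3, at -5 for C3ar1 and at -152 for C1qc, whose GENCODE start lies upstream of the RefSeq one. Capitals mark a match to 1 of 6 motifs searched on both strands:
C1qb: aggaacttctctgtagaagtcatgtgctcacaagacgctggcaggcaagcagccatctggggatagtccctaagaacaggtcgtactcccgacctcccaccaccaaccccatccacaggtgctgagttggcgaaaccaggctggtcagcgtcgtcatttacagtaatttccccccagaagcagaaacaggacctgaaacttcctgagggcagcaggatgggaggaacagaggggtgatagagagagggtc
C1qc: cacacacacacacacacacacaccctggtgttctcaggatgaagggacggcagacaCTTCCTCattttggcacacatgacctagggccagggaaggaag
C3ar1: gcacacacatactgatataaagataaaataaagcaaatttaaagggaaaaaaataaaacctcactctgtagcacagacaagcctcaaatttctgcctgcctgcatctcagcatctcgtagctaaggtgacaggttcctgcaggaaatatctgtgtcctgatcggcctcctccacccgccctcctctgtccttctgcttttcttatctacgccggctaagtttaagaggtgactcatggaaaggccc
C3: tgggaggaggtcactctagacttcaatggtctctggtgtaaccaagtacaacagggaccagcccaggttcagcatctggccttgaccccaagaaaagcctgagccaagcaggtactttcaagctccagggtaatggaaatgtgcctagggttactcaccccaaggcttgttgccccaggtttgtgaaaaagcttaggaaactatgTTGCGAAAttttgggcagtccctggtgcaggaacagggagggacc

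The motifs were the core of PU.1, a myeloid transcription factor (GAGGAAG), the interferon element ISRE, the interferon-gamma element GAS (TTCNNNGAA), the C/EBP site (TTGCNNAA), the half-site of MAF factors (TGCTGAC) and an NF-kB site. The C1qc window held 1 PU.1 core on the opposite strand, at -194 to -188, and the C3 window held 1 C/EBP match, at -45 to -38. Among all 32851 RefSeq windows of 300 bases, 13.6% held the PU.1 core and 10.8% the C/EBP site. ISRE, GAS, the MAF half-site and NF-kB occurred in 3.44, 8.30, 4.67 and 0.411% of windows and in none of the 5 windows at hand. No matches overlapped, and C1qb, C3ar1 and C5ar1 held none of the 6. These are matches of letters and describe the windows only.

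C3 (ENSMUSG00000024164.15, mm10 chromosome 17, 57203970 to 57228136, minus strand), the component on which all complement routes converge, had 16.8, 10.1, 21.8 and 41.0 CPM in PERK KO libraries 1 to 4, against 6.50, 3.00, 0.607 and 2.44 CPM in scramble libraries 2 to 5. PERK KO library 4 was again the highest, but library 2, high for C1q, was here the lowest of its group. C3 was called higher, with a log2 change of 2.83 (SE 0.68, 95% interval 1.29 to 4.38, edgeR adjusted p = 0.0269). The scramble libraries differed 10.7 times among themselves, and without scramble replicate 2 the log2 change was 3.46. C3 was no longer called once scramble replicate 3 or 5 was left out (edgeR adjusted p = 0.0993 and 0.0901) and with no filter (0.0914).

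C4b (ENSMUSG00000073418.4, chromosome 17, 34728380 to 34743882), the classical pathway C4, had 45.7, 63.4, 56.1 and 85.5 CPM in PERK KO libraries 1 to 4, against 84.7, 75.2, 79.7 and 68.3 CPM in scramble libraries 2 to 5. PERK KO library 4 lay above all scramble libraries and the other 3 below them. The log2 difference was -0.30 (95% interval -0.65 to 0.06, edgeR adjusted p = 0.282). Without PERK_KO replicate 4 C4b fell by 0.49 (edgeR adjusted p = 0.0303). Of all 105-base words in C4b transcripts, the read length used, 14.0% also occurred in transcripts of its neighbour C4a, and C4a held 0.807% as many counts as C4b in PERK KO tumours and 1.24% in scramble tumours, so the split between these copies is uncertain.

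C2 (ENSMUSG00000024371.14, chromosome 17, 34862604 to 34898265), the protease that joins C4 in the C3-cleaving enzyme, had 73.7, 124, 66.4 and 63.2 CPM in PERK KO libraries 1 to 4, against 56.1, 65.8, 69.1 and 82.1 CPM in scramble libraries 2 to 5. PERK KO library 2 was the only one above the scramble range. The log2 difference was 0.26 (95% interval -0.19 to 0.71, edgeR adjusted p = 0.485), and it was -0.00457 without PERK_KO replicate 2. The interval excluded a change as large as that of any of the genes that rose.

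Cfb (ENSMUSG00000090231.10, chromosome 17, 34856374 to 34862518), factor B of the alternative pathway, had no count in PERK KO libraries and 10, 17, 6 and 0 counts in scramble libraries 2 to 5. The scramble level of 0.156 CPM was 7.93 times a floor of 3 counts over the PERK KO group. That floor covers counting error in the PERK KO group only, not in the scramble counts, and Cfb was not tested. The annotation limits what can be said of this gene: 79.5% of the exon bases of Cfb, and 42.8% of those of C2, also belong to Gm20547, a gene on the same strand whose transcripts run through both. Gm20547 had no count in any library. How the counting treated reads that fit more than 1 gene is not given in the sources used here, so a low Cfb count does not measure the Cfb transcript, and the C2 count may rest on part of its exons. C1qa, C1qb, C1qc, C3, C3ar1 and C5ar1 shared no exon base and no 105-base word with another gene.

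C3ar1 (ENSMUSG00000040552.8, chromosome 6, 122847138 to 122856161), the C3a receptor, had 20.9, 58.8, 20.1 and 66.3 CPM in PERK KO libraries 1 to 4, against 7.26, 7.64, 4.35 and 10.6 CPM in scramble libraries 2 to 5. Its log2 change was 2.48 (SE 0.47), past the threshold (edgeR adjusted p = 0.0107). C5ar1 (ENSMUSG00000049130.6, chromosome 7, 16246743 to 16259540), the C5a receptor of phagocytes, had 14.9, 35.8, 14.5 and 40.6 CPM in PERK KO libraries, against 6.99, 5.77, 2.47 and 7.14 CPM in scramble libraries, and rose by 2.24 (SE 0.43, edgeR adjusted p = 0.00888). Both receptors were high in PERK KO libraries 2 and 4 and lowest in scramble library 4, as the C1q chains were. The ligand of C5ar1 is cut from C5, whose gene Hc did not pass the filter. Hc had 0, 0, 16 and 15 counts in PERK KO libraries 1 to 4 and none in scramble libraries.

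Per kilobase of exon, the order in PERK KO tumours was C1qb (67.2 CPM per kb), C1qa (36.5), C1qc (23.0), C4b (11.01), C5ar1 (10.3), C3ar1 (9.65) and C3 (4.36), leaving out C2 and Cfb for their shared exons. In scramble tumours C4b came first at 13.5 CPM per kb, ahead of C1qb at 11.1, C1qa at 6.51, C1qc at 3.89, C5ar1 at 2.18, C3ar1 at 1.73 and C3 at 0.610. Neighbours such as C4b, C5ar1 and C3ar1 in PERK KO tumours lay within the spread between libraries.

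The genes whose levels moved most like C1qa over the 8 libraries were Apobr, a lipoprotein receptor of macrophages, Ctss, a lysosomal protease of antigen-presenting cells, Dab2, an endocytic adaptor, Ms4a6c and Fxyd5 (Pearson r = 0.992 to 0.997 on log2 CPM, among 11788 genes). They share with C1qa the libraries and the group difference. After each group's mean was taken away, r was 0.968 to 0.990 for these 5 genes. The genes most like C3 were Gpx3, a secreted glutathione peroxidase, 4930523C07Rik, Dennd1c, Samsn1, an adaptor of lymphocytes, and Coro2a (r = 0.983 to 0.989). For these 5 genes r was 0.945 to 0.969 once each group's mean was taken away. Both sets were picked for their r over the same 8 libraries, so the r within groups is no separate check of the likeness. Gpx3 had 44.9, 17.8, 38.4 and 72.0 CPM in PERK KO libraries 1 to 4, against 7.26, 5.20, 0.910 and 4.01 CPM in scramble libraries 2 to 5, and like C3 it was lowest in library 2 among the PERK KO libraries.

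**Figure D3:**
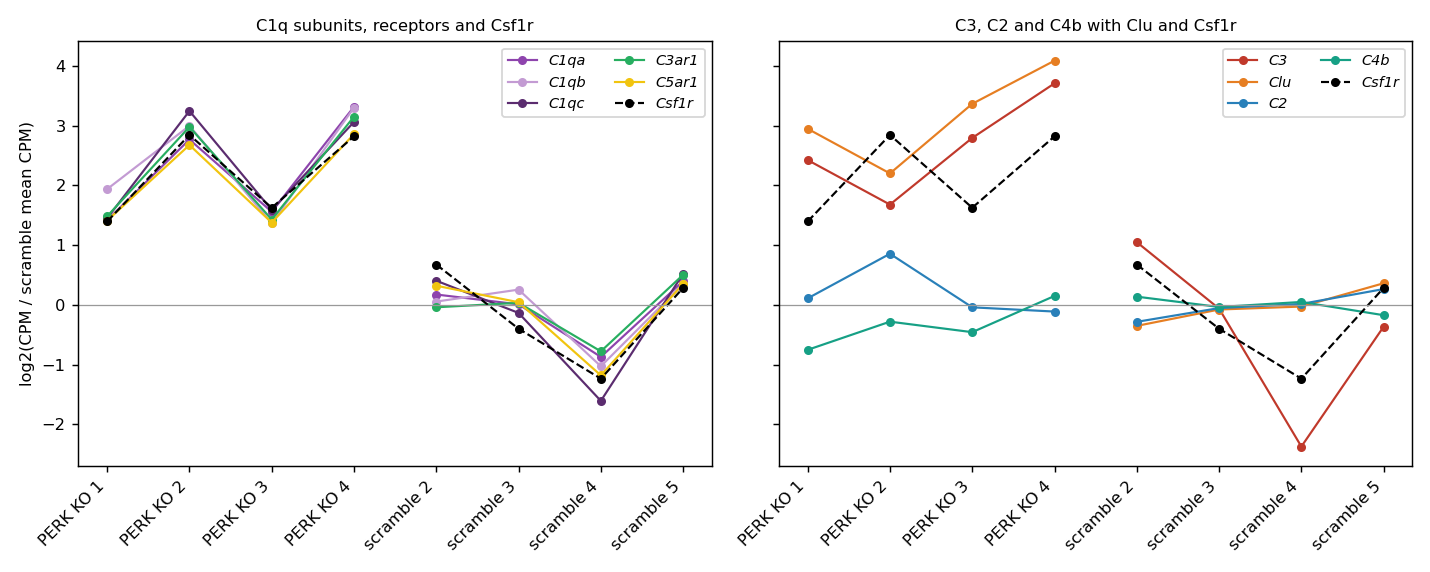
Level of each gene in each library as log2 of CPM over the gene's scramble mean (y axis), with PERK KO libraries on the left of each panel. C1q chains, C3ar1 and C5ar1 follow the dashed line of Csf1r, with PERK KO libraries 2 and 4 high, while among PERK KO libraries C3 and the regulator Clu are lowest in library 2. Among scramble libraries C3 is highest in library 2, where Clu is lowest. C2 departs most in PERK KO library 2, at 124 CPM against a scramble mean of 68.3 CPM, and C4b in PERK KO library 1, at 45.7 CPM against a scramble mean of 77.0 CPM.

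Markers of several cell types moved in the same direction, while of 12 melanocyte markers 8 fell and none rose. Csf1r, the growth factor receptor of macrophages, had 22.4, 61.2, 26.3 and 60.2 CPM in PERK KO libraries 1 to 4, against 13.6, 6.46, 3.62 and 10.4 CPM in scramble libraries 2 to 5 (log2 change 2.32, edgeR adjusted p = 0.0162). It was no longer called once scramble replicate 3 was left out (edgeR adjusted p = 0.0667) or no filter was used (0.0593). Of 18 macrophage markers 15 rose and none fell, with a median log2 change of 2.30. The 3 that did not pass were Mertk, Apoe and Marco. Together the 18 took 1049 to 2271 CPM in PERK KO libraries and 1024 to 1122 CPM in scramble libraries, so the sums overlapped. Ptprc (CD45), carried by all leukocytes, averaged 53.1 ± 42.5 CPM in PERK KO and 7.23 ± 2.77 CPM in scramble tumours (SD, n = 4 each; log2 change 2.88, edgeR adjusted p = 0.0179). It was no longer called without scramble replicate 2 or 3 (edgeR adjusted p = 0.0504 and 0.0688) or with no filter (0.0521), and without PERK_KO replicate 4 its log2 change was 2.16. Of 12 pan-leukocyte markers, Ptprc included, 10 rose, with sums of 296 to 1005 CPM in PERK KO libraries and 138 to 178 CPM in scramble libraries. Of 12 epithelial markers 11 rose, with sums of 103 to 265 CPM in PERK KO libraries and 5.27 to 7.66 CPM in scramble libraries.

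Of 10 mast cell markers all 10 rose, with sums of 688 to 3082 CPM in PERK KO libraries and 18.1 to 158 CPM in scramble libraries. Of 10 dendritic cell markers 8 passed the filter and 6 rose, Itgax among them. The sums of the 10 were 51.1 to 244 CPM in PERK KO libraries and 6.39 to 16.3 CPM in scramble libraries. Of 12 fibroblast markers 1, Lum, rose, and the median log2 change was 0.68. Their sums were 281 to 429 CPM in PERK KO libraries and 223 to 414 CPM in scramble libraries. None of 10 endothelial markers passed with edgeR, DESeq2 or limma-voom (1 higher and none lower at an unadjusted p under 0.05 with each), and their sums were 75.9 to 283 CPM in PERK KO libraries and 39.03 to 203 CPM in scramble libraries. Of 10 neutrophil markers only 4 passed the filter on low counts, and Ly6g, Camp and Ngp had no count in any library. Of the 4 tested 1, Csf3r, rose with edgeR and none with limma-voom, and their median log2 change was 2.33. The sums of the 10 were 2.34 to 13.5 CPM in PERK KO libraries and 0.580 to 2.85 CPM in scramble libraries. The part of any of these cell types in the complement results was not tested.

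Counts of each gene were also set against those of Csf1r in the same library, which does not depend on the scaling. The log2 ratio to Csf1r averaged -0.237 ± 0.272 in PERK KO and -0.234 ± 0.419 in scramble libraries for C1qa, -0.102 ± 0.218 in PERK KO and -0.0914 ± 0.552 in scramble libraries for C3ar1, and -0.697 ± 0.140 in PERK KO and -0.552 ± 0.326 in scramble libraries for C5ar1 (SD, n = 4 each). The differences between groups were thus -0.003, -0.010 and -0.145, and those of C1qb and C1qc were 0.153 and 0.200, with exact two-sided permutation p of at least 0.314 for all 5. C3 against Csf1r differed by 0.741 (exact permutation p = 0.257), with PERK KO library 2 at -2.60 and the other 3 PERK KO libraries between -0.552 and -0.271.

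C2 and C4b moved unlike Csf1r. The log2 ratios of C2 and C4b to it differed by -2.12 and -2.67 between PERK KO and scramble tumours, with every PERK KO library below every scramble library. Both had an exact two-sided permutation p = 0.0286, the smallest that 70 assignments can give, and an adjusted p = 0.0571 over the 16 ratios computed, so no ratio could be called at 0.05. Against Pdgfra, a receptor of fibroblasts that did not pass its own test (1.79 ± 0.240 CPM in PERK KO and 2.42 ± 0.658 CPM in scramble tumours, SD, n = 4 each; edgeR adjusted p = 0.606), the log2 ratio of C3 was 3.48 higher in PERK KO tumours, and those of the C1q chains and receptors 2.60 to 2.94 higher, each without overlap (exact permutation p = 0.0286, adjusted p = 0.0571). The ratio of C2 to Pdgfra differed by 0.618 (exact permutation p = 0.114), with 3 of 4 PERK KO libraries above every scramble library. The ratio of C4b to Pdgfra differed by 0.072 (exact permutation p = 0.8286), with overlapping groups. Pdgfra held 47 to 170 counts per library. Its log2 change was -0.44, against a median of 0.68 over the 12 fibroblast markers, so these ratios hold for Pdgfra and not for fibroblast markers in general.

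**Figure D4:**
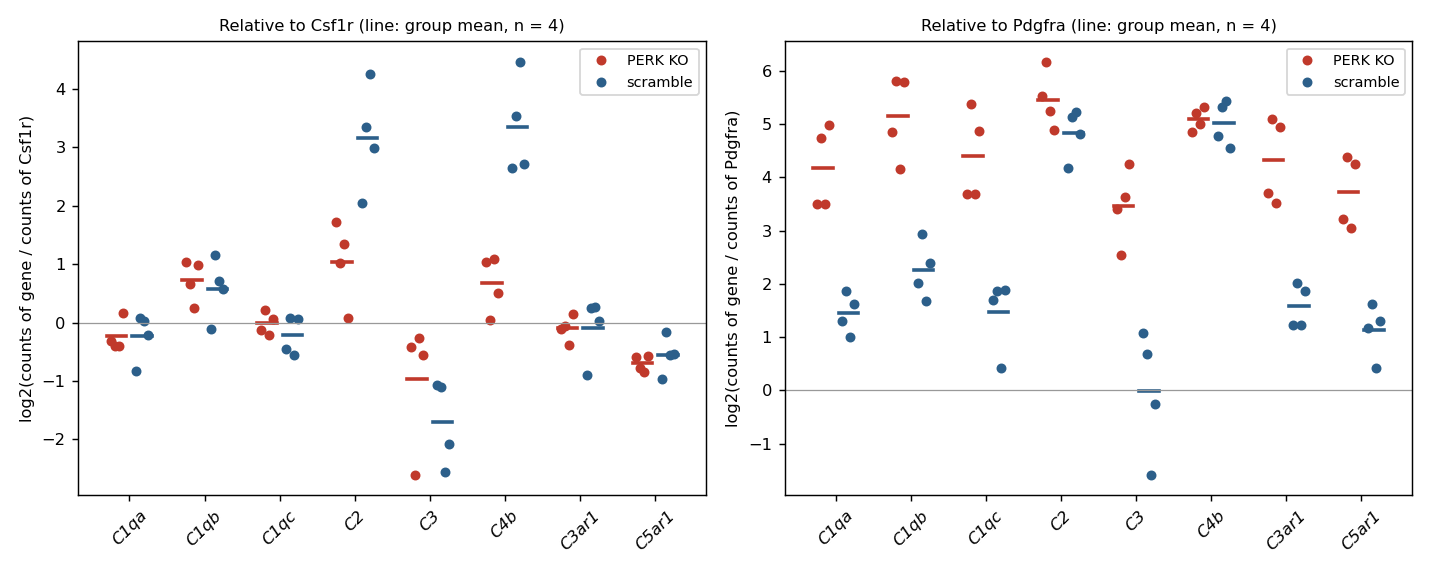
Log2 ratio of each gene's counts to those of Csf1r (left) and of Pdgfra (right) in each library, with lines at group means (n = 4) and PERK KO points left of scramble points. C1q chains, C3ar1 and C5ar1 overlap between groups against Csf1r, while C2 and C4b are lower in all 4 PERK KO libraries. Against Pdgfra C4b overlaps between groups and C3 is 3.48 higher in PERK KO tumours.

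The rest of the pathway was read from a list of 44 genes, of which 21 passed the filter on low counts. Of these, 8 rose and none fell (edgeR, with 9 higher and none lower at an unadjusted p under 0.05, and 9 higher and none lower by DESeq2 at an adjusted p under 0.05). The median log2 change of the 21 was 0.84. A further 11 had no count in any library, among them the mannose-binding lectins Mbl1 and Mbl2 and the terminal components C7, C8a, C8b and C9, which allows at most 0.0515 to 0.100 CPM in each library.

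Of the genes that start the classical and lectin pathways, 1 of 6 tested rose. This was Fcna, a ficolin that recognises sugars, with 6.60, 13.7, 6.43 and 17.8 CPM in PERK KO libraries 1 to 4, against 2.37, 1.61, 0.520 and 2.77 CPM in scramble libraries 2 to 5 (log2 change 2.61, edgeR adjusted p = 0.00693). C1ra, a protease of the C1 complex, averaged 17.1 ± 3.87 CPM in PERK KO and 12.0 ± 1.302 CPM in scramble tumours (SD, n = 4 each; edgeR adjusted p = 0.091), and C1rl, a related protease, 9.55 ± 4.54 CPM in PERK KO and 9.63 ± 0.684 CPM in scramble tumours (edgeR adjusted p = 0.987). C1ra passed with DESeq2 (adjusted p = 0.0499) and without PERK_KO replicate 3 (edgeR adjusted p = 0.0329).

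In the alternative pathway, Cfp, the stabiliser properdin made by leukocytes, had 23.8, 30.0, 16.5 and 51.9 CPM in PERK KO libraries 1 to 4, against 9.58, 9.05, 4.09 and 10.2 CPM in scramble libraries 2 to 5. It rose by 1.89 (SE 0.37, edgeR adjusted p = 0.0099). Cfd, the factor D protease of fat tissue, did not pass the filter and had 0, 0, 35 and 67 counts in PERK KO libraries and none in scramble libraries. Of the 7 terminal components only C8g was tested, at 0.593 ± 1.08 CPM in PERK KO and 0.952 ± 0.487 CPM in scramble tumours (SD, n = 4 each; edgeR adjusted p = 0.845).

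Regulators of complement include secreted and membrane proteins. The secreted Clu (clusterin, which blocks the membrane attack complex) had 23.3, 13.9, 31.2 and 51.4 CPM in PERK KO libraries 1 to 4, against 2.37, 2.87, 2.97 and 3.89 CPM in scramble libraries 2 to 5. It rose by 3.31 (SE 0.36, edgeR adjusted p = 0.000513). Among the PERK KO libraries Clu was highest in library 4 and lowest in library 2, as C3 was. The scramble libraries did not share an order, as Clu was lowest in library 2, where C3 was highest. With each group's mean taken away, the Pearson r of C3 on log2 CPM was 0.373 with Clu, 0.595 with Csf1r and 0.679 with Ptprc. It was 0.00537 with the epithelial marker Epcam and -0.360 with the macrophage marker Apoe. These values rest on 8 libraries, and differences among them were not tested.

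Of 4 membrane regulators tested 1 rose. This was Cd55, which breaks up C3-cleaving enzymes, with 5.09, 10.98, 14.3 and 26.0 CPM in PERK KO libraries 1 to 4, against 0.561, 1.18, 0.217 and 0.5998 CPM in scramble libraries 2 to 5. Cd55 was called higher, with a log2 change of 4.44 (SE 0.58) that was larger than that of any other complement gene called (edgeR adjusted p = 0.00129). Cr1l (Crry), the main membrane regulator of rodents, averaged 34.4 ± 1.96 CPM in PERK KO and 36.8 ± 3.70 CPM in scramble tumours (edgeR adjusted p = 0.647), with a 95% interval of -0.34 to 0.14 for the log2 difference. Cd59a, which blocks pore assembly, averaged 8.90 ± 3.80 CPM in PERK KO and 8.18 ± 1.17 CPM in scramble tumours (SD, n = 4 each; edgeR adjusted p = 0.861). Cd46 had 0.201, 0.415, 2.81 and 0.208 CPM in PERK KO libraries 1 to 4, against 1.74, 2.47, 2.66 and 1.63 CPM in scramble libraries 2 to 5. It did not pass (log2 difference -1.22, edgeR adjusted p = 0.422).

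Of the receptors for C3 fragments, the integrin chains Itgam, Itgax and Itgb2, which form complement receptors 3 and 4, rose by 1.83, 3.44 and 1.94 (edgeR adjusted p = 0.0276, 0.000764 and 0.00709). Itgam was no longer called once PERK_KO replicate 4, or scramble replicate 3 or 5, was left out (edgeR adjusted p = 0.0772, 0.0662 and 0.0796). Cd93, a receptor of endothelial and myeloid cells, averaged 96.6 ± 46.0 CPM in PERK KO and 63.4 ± 31.6 CPM in scramble tumours and did not pass (SD, n = 4 each; edgeR adjusted p = 0.590). Vsig4, the complement receptor of resident tissue macrophages, had 51 counts over the PERK KO libraries, all in library 4, and 12 over the scramble libraries, and did not pass the filter.

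**Figure D5:**
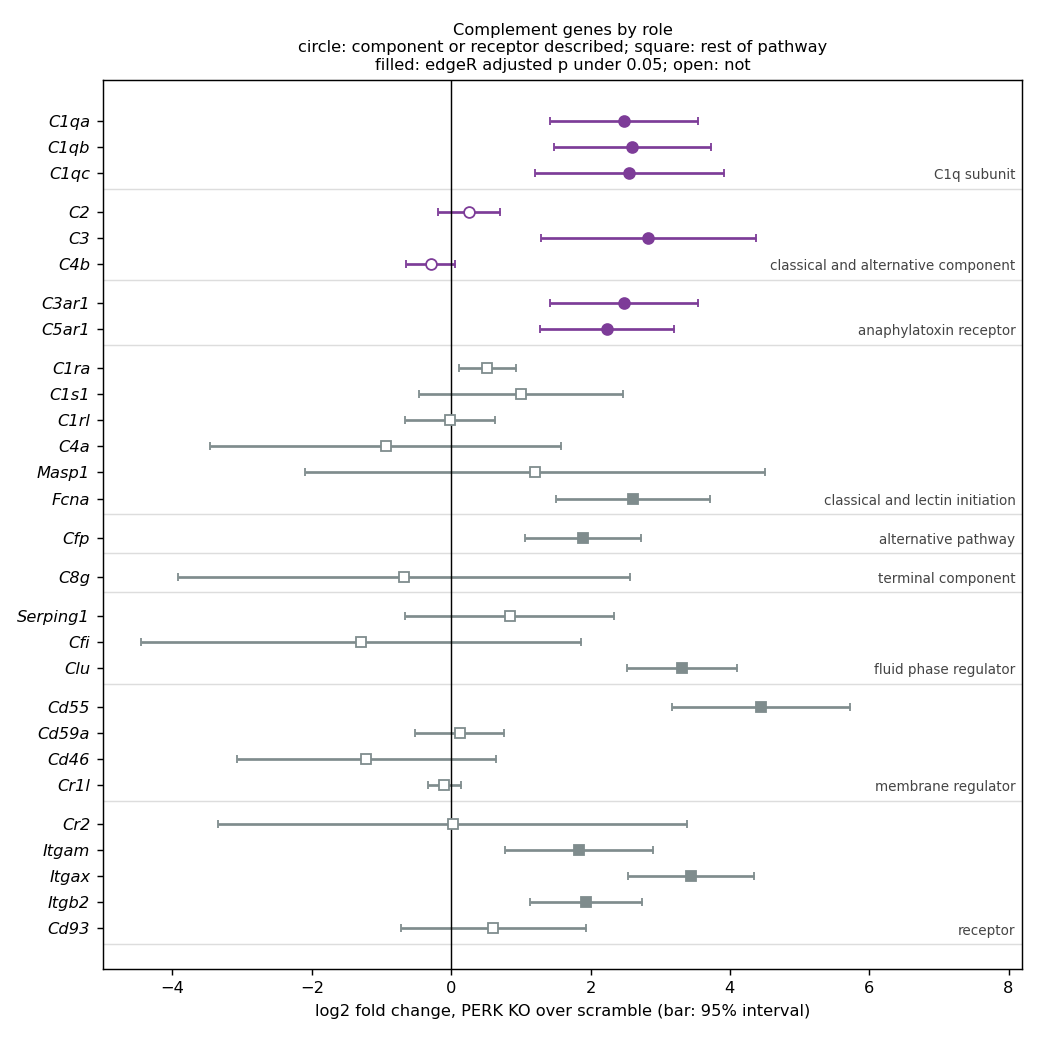
Log2 fold change of PERK KO over scramble tumours (x axis, bars 95% interval) for tested complement genes, grouped by role, with circles for the 8 tested genes described first, squares for 20 of the other 21, and filled symbols for an edgeR adjusted p under 0.05. The C1q chains and both receptors sit between 2.24 and 2.60, C2 and C4b near 0, and Cd55 at 4.44.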

How the data were processed

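Per the labels' protocols, tumours were digested, beads were used to enrich cells bearing c-Kit, and 100 ng of RNA per sample went into strand-specific libraries read as 105-base pairs. Per the submitters' processing notes the build was mm10 and the tools were DESeq2 1.30.1, HTSeq 0.6.1, STAR 2.5.3a and bcl2fastq. Settings are not given in the sources used here. The authors deposited raw counts per gene and a normalized signal, which equals the counts times 1 factor per library and served only as a check.

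All 55450 identifiers matched GENCODE M21, from which positions and exon lengths were taken. filterByExpr kept 16662 genes. Counts were scaled with TMM, and edgeR 4.0.16 in R 4.3.3 compared the groups (robust quasi-likelihood fit, group as the only term) at a Benjamini-Hochberg adjusted p of 0.05 over all genes. CPM values are TMM-scaled, and log2 CPM used a prior count of 2. Ratios added 0.5 to each count and were compared by exact permutation (scipy 1.17.1). The fit was tested on simulated data, where it recovered 36, 60, 84 and 86% of changes of 1.5, 2, 4 and 8 times. Genes that did not pass may thus hold changes of such sizes.

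Genes named outright were the 9 complement genes, fixed markers, called complement genes, the 2 most abundant of each role, and the 5 genes most like C1qa and C3. Cfd, Hc, Vsig4, Cd46 and single markers were named after their values were seen, and 1 gene that the rule names is not reported here. The genes, lists and tests were chosen with earlier results of these data known, and the motifs after the levels were seen. Replicate numbers shared by the groups (2, 3 and 4) name tumours and did not pair them. Alternatives were limma-voom 3.58.1 with weights, DESeq2 1.42.0, other scalings and filters, a fit that is not robust, blocking on the replicate number, and omission of single libraries.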

Additional observations from a re-analysis of the deposited data

Results flagged for a closer look

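Among 108 groups of 4 libraries examined, 9 held 1 library far from the other 3, where chance flags about 1 in 20 groups. Against Csf1r, the log2 ratio of C1qa stood apart in PERK KO library 4 at 0.166, and that of C3 in PERK KO library 2 at -2.60. The log2 ratio of C1qc to Pdgfra stood apart in scramble library 4 at 0.421. Among the other genes, PERK KO library 4 stood apart for Cr1l at 31.5 CPM, for 4930523C07Rik at 20.4 CPM, for Samsn1 at 27.1 CPM and for Coro2a at 49.6 CPM. C8g stood apart in PERK KO library 3 at 2.21 CPM, and Itgax in scramble library 4 at 0.542 CPM. No cause was tested for any of these.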

How the results depend on the processing

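The 6 rises kept their direction under all 18 alternatives, of which 1, the fit with no block on 6 libraries, was added after seeing the data. All 6 stayed called with DESeq2, limma-voom, each other scaling, the stricter filter and the fit that is not robust. Leaving out 1 library gave 4 to 6 of the genes higher and 0 to 1 lower, and 7 to 9 of the other complement genes higher and 0 to 1 lower, the single lower ones being C4b without PERK_KO replicate 4 and Cd46 without PERK_KO replicate 3. Over all genes it gave 639 to 1372 higher and 439 to 1244 lower. Upper-quartile factors gave 1430 higher and 653 lower genes, so 68.7% of calls were higher against 55.5% with TMM, and library totals alone gave 47.7%. The replicate block could be fitted on 6 libraries: it called 0 of the 9 genes higher, 3 other complement genes higher, and 139 higher and 60 lower genes in all. Without the block the same libraries gave 5 of the 9 genes higher, 7 other complement genes higher, and 913 higher and 421 lower genes. With no filter 4 of the 9 were called higher. In the block C1qa had an edgeR adjusted p = 0.0999 and a log2 change of 2.80. After each gene's group mean was taken away from its log2 CPM, same-numbered libraries correlated at -0.00906, 0.0982 and -0.204, so the numbers were not read as pairs.

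Direction turned only where differences were small. C2 ran from -0.00457 (without PERK_KO replicate 2) to 0.361 without 1 library. C1rl, at -0.0121, became 0.0276 with DESeq2 and with RLE factors, 0.0175 with the stricter filter, 0.0468 with upper-quartile factors, and between -0.337 and 0.162 without 1 library. Cd59a, at 0.120, became -0.216 in the block, -0.185 in its 6 libraries, and between -0.18 and 0.314 without 1 library. Log2 ratios to Csf1r without 1 library ran from -0.202 to 0.101 for C1qa, from -0.0789 to 0.345 for C1qb and from -0.281 to 0.109 for C3ar1, and that of C4b to Pdgfra from -0.0842 to 0.207. The cause was not tested. No ratio can pass with 7 libraries, where the smallest exact p is 0.0571.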
